A study of Mus musculus with 6 samples.

Results

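The 5p arms of the let-7 and miR-98 hairpins, the strands usually taken as the guides of this miRNA family, were described here in small RNA libraries of exosomes released by mouse macrophages. The 9 names mmu-let-7a-5p, mmu-let-7b-5p, mmu-let-7c-5p, mmu-let-7d-5p, mmu-let-7e-5p, mmu-let-7f-5p, mmu-let-7g-5p, mmu-let-7i-5p and mmu-miR-98-5p (mmu, for mouse, is dropped from here on) were taken by name from a table of 707 mature miRNAs. All 9 had counts in each of the 6 libraries and passed the filter on low counts. The groups were 3 WT samples and 3 Roquin-1 san:san samples, each from the supernatant of bone marrow-derived macrophages of C57BL/6 mice, and the labels give no added agent, time point or age. Roquin-1 binds stem-loops of certain messenger RNAs and speeds their breakdown, and san (sanroque) is a point-mutant allele of its gene. In these libraries the 5p arm had more counts than the 3p arm of its hairpins throughout, except for let-7d. let-7d-3p was counted 327, 604 and 356 times in WT and 2063, 1802 and 1429 times in san:san, which is above let-7d-5p in 5 of 6 libraries, so the counts do not mark let-7d-5p as the main strand of its hairpin. The labels do not say how many mice or cultures stand behind the replicates, so p-values reflect only how much these samples vary, and that variation may be technical.

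A let-7 hairpin is cut by Drosha and Dicer, and its 5p arm is usually the strand that Argonaute keeps. Through bases 2 to 8, the seed, the retained strand pairs with messenger RNAs and represses them. let-7 was first known from the timing of worm development, and in mammals its level rises as cells differentiate and leave the cell cycle. In macrophages let-7 members have been tied to Toll-like receptor signalling and cytokine output, and they are among the more abundant miRNAs of many cells and vesicles.

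The mature sequences show why the members can be hard to tell apart in short reads, so all 9 are given from the RefSeq miRNA table (GRCm38.p6), with the seed in capitals.
let-7a-5p: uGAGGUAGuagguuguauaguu
let-7b-5p: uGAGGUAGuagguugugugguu
let-7c-5p: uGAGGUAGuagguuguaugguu
let-7d-5p: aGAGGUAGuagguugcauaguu
let-7e-5p: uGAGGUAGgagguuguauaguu
let-7f-5p: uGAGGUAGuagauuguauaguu
let-7g-5p: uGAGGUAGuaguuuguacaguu
let-7i-5p: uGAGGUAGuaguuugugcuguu
miR-98-5p: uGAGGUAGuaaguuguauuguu

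All 9 sequences are 22 bases long and share 1 seed. Ligation and amplification can favour one sequence over another, so levels of different members within a library are read counts, not molecules. They differ from let-7a-5p by 1 to 4 bases. Positions are counted from 1 at the 5′ end, with the let-7a-5p base first and the other member's base last. let-7c-5p differs by A19G, let-7e-5p by U9G and let-7f-5p by G12A. let-7b-5p differs by A17G and A19G, let-7d-5p by U1A and U16C, let-7g-5p by G12U and U18C, and miR-98-5p by G11A and A19U. let-7i-5p is the most distant, with G12U, A17G, U18C and A19U. Of the 36 pairs of members, 4 differ at a single base: let-7a-5p with let-7c-5p, let-7e-5p and let-7f-5p, and let-7b-5p with let-7c-5p.

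The 9 members come from 12 hairpins, whose 5p arms were located on GRCm38.p6. The authors' own build was mm9, and no read positions were used. A cluster on chromosome 13 lies in exons of the long non-coding gene 6720427I07Rik and holds let-7a-1 (chr13:48538239-48538260), let-7f-1 (chr13:48537889-48537910) and let-7d (chr13:48536078-48536099), all on the minus strand. A pair on the plus strand of chromosome 15 lies in exons of the non-coding gene Lncppara and holds let-7c-2 (chr15:85706616-85706637) and let-7b (chr15:85707325-85707346). The other let-7c hairpin, let-7c-1 (chr16:77599672-77599693, plus strand), lies in an intron of Mir99ahg, with an intron of Gm11146 on the opposite strand, 657 bases from the miR-99a hairpin. let-7e (chr17:17830366-17830387, plus strand) lies in an intron of Spaca6, 368 bases from the miR-125a hairpin. let-7f-2 (chrX:151912353-151912374) and miR-98 (chrX:151913229-151913250) lie in introns of Huwe1 on the plus strand. let-7g (chr9:106178846-106178867, plus strand) lies in an intron of Wdr82, and let-7i (chr10:122985698-122985719, minus strand) in an exon of the pseudogene D630033A02Rik. let-7a-2 (chr9:41536732-41536753, plus strand) lies in introns of the non-coding genes 3110039I08Rik and Gm49317. let-7a-5p, let-7c-5p and let-7f-5p are therefore each the product of 2 hairpins, and the counts do not say which hairpin made a molecule.

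No 2 of the 9 members had identical counts. On the other arm of the hairpins, let-7a-1-3p and let-7c-2-3p did, each name being counted 25, 52 and 26 times in the WT libraries and 149, 166 and 93 times in the san:san ones. Counts of the table exceeded the read total implied by the per-sample columns by between 670 and 13324 counts a library. Identical rows, led by miR-486a-5p and miR-486b-5p, accounted for 267 to 10831 of these. The counts left over ranged from 403 to 2493, equal in size to 9.43% to 19.7% of the let-7 5p counts of the same library. The table does not say which names received them. Reads cut short before base 19 cannot separate let-7a-5p from let-7c-5p, and those cut before base 17 cannot separate let-7a-5p, let-7b-5p and let-7c-5p. let-7c-5p had at most 28.5% of the counts of let-7a-5p in any library, so most let-7a-5p reads were not also counted under let-7c-5p. The values of let-7b-5p, let-7c-5p and let-7e-5p remain uncertain to the extent that reads of a more abundant neighbour were counted under them. One other name in the table holds the let-7 seed, the 19-base let-7k (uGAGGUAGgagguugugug), which differs from the start of let-7b-5p at 1 base and had 6 to 33 counts a library. let-7j has another seed and was not included.

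The san:san libraries were deeper than the WT libraries, with 126098 to 185901 against 12447 to 28884 counts. Myeloid miRNAs, among them miR-223-3p and miR-142a-3p, were found in every library, and the 6 names of that list held 4.82% to 5.62% of WT counts and 9.20% to 10.9% of san:san counts. None of the 6 was at 0 in all libraries, and miR-155-5p was the lowest, at 1 to 15 counts. The 5 erythroid names held 3.84% to 6.25% and 15.6% to 17.9%, also without a member at 0. Of these names miR-486a-5p and miR-486b-5p had identical counts (145, 465 and 362 in WT, 9848, 8803 and 7532 in san:san). Both copies are included in the share of the list and in the total counts. miR-150-5p, of lymphocytes, held 0.409% to 0.492% and 1.38% to 1.92%, and the 2 endothelial miR-126a arms 1.82% to 3.69% and 3.37% to 6.96%. In the edgeR test given below, 34.6% of all 254 tested miRNAs were called higher in san:san. miR-150-5p and both miR-126a arms were among them, while liver miR-122-5p, at 0.501% to 0.699% and 0.420% to 0.580%, was not called. Depth and the totals of the myeloid, erythroid, lymphocyte and endothelial names moved with genotype, but not every name did. Of 5 myeloid names tested 4 were called higher, where 34.6% of all tested miRNAs were, and miR-155-5p was not tested. miR-146a-5p was not called (log2 0.26, edgeR adjusted p = 0.363, and log2 -0.30 with total counts). Of the 5 erythroid names 4 were called higher, the identical miR-486a-5p and miR-486b-5p among them, and miR-144-3p was not (log2 0.67, edgeR adjusted p = 0.158). The part of depth and of these markers in the let-7 values was not tested except where a value is given below.

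The let-7 5p arms made up a smaller part of the san:san exosome libraries. They held 2639, 5114 and 4271 counts in WT replicates 1 to 3, which is 21.2% (exact 95% binomial interval 20.5 to 21.9), 17.7% (17.3 to 18.2) and 19.6% (19.1 to 20.2) of all miRNA counts. In san:san they held 23283, 20587 and 13291 counts, which is 12.5% (12.4 to 12.7), 12.8% (12.7 to 13.0) and 10.5% (10.4 to 10.7). Intervals cover counting error only, since reads without molecular identifiers are not independent molecules. Every san:san library lay below every WT library, with means of 19.5% ± 1.75 and 12.0% ± 1.24 (SD, n = 3 per genotype throughout), a difference of -7.55 percentage points. These are shares of a whole: they fall when other miRNAs rise, and fewer vesicles carrying let-7 cannot be told apart from less let-7 per vesicle. Without the erythroid names in the total the shares were 20.6% ± 1.67 and 14.3% ± 1.29, and without the 5 most abundant non-members 24.3% ± 2.30 and 19.6% ± 1.42, both still without overlap. The difference without those 5 was -4.69 percentage points, against -7.55 with them.

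**Figure D1:**
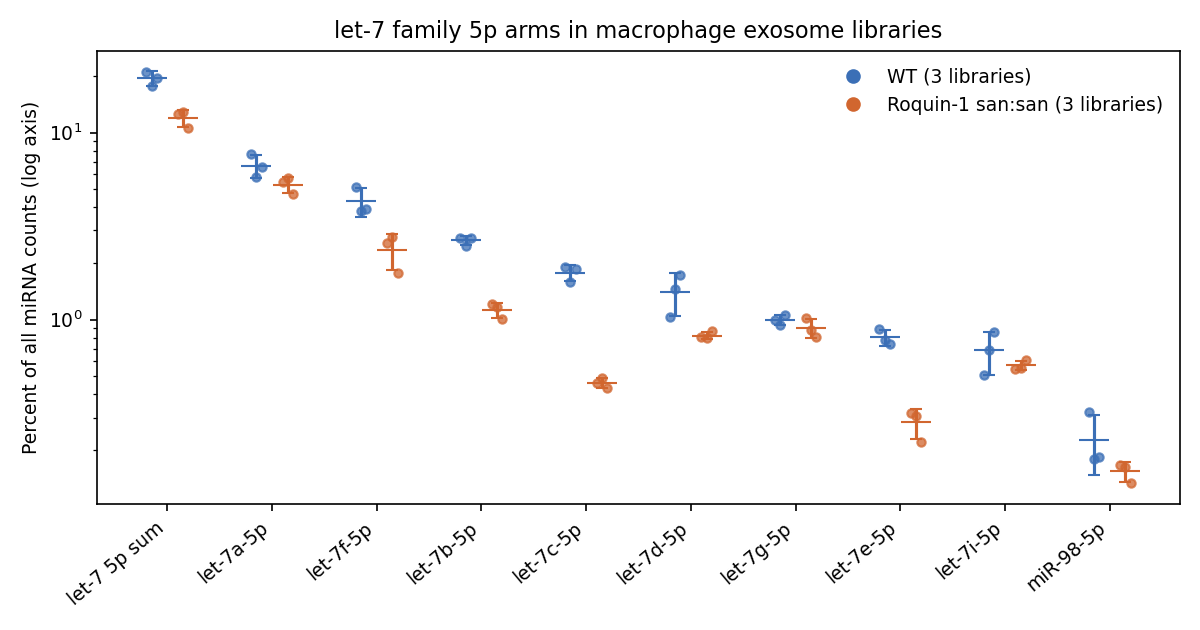
Percent of all miRNA counts (log axis) held by the 9 let-7 5p arms and their sum in each library, WT in blue and Roquin-1 san:san in orange. Points are libraries, and bars give the mean and SD of 3 libraries. The sum stands at 17.7% to 21.2% in WT and 10.5% to 12.8% in san:san, and of the members only let-7g-5p and let-7i-5p overlap between genotypes.

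As a percent of all counts, 7 of the 9 members (77.8%) were lower in every san:san library than in every WT library. Among all 254 miRNAs tested, 42.1% were lower in this way and 22.4% higher. let-7g-5p and let-7i-5p overlapped. For let-7a-5p the nearest libraries, at 5.77% (5.51 to 6.05) in WT and 5.71% (5.59 to 5.82) in san:san, were within counting error of each other. Intervals of nearby libraries also overlapped for miR-98-5p, at 0.180% (0.134 to 0.236) in WT replicate 2 and 0.167% (0.149 to 0.187) in san:san replicate 1. So did those of let-7d-5p, at 1.03% (0.859 to 1.22) in WT replicate 1 and 0.865% (0.815 to 0.918) in san:san replicate 3. The fall was uneven: let-7c-5p went from 1.78% ± 0.177 to 0.459% ± 0.0264 of all counts and let-7b-5p from 2.66% ± 0.156 to 1.12% ± 0.107, while let-7g-5p stood at 0.998% ± 0.0578 and 0.904% ± 0.109. Exact 95% intervals for a single member or the sum were at most ±0.722 percentage points wide in WT and ±0.170 in san:san.

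The order of the members showed the same unevenness. let-7a-5p, let-7f-5p and let-7b-5p held ranks 1, 2 and 3 within the family in all 6 libraries, and miR-98-5p was last. let-7c-5p held rank 4 in each WT library and rank 7 in each san:san library, where let-7g-5p, let-7d-5p and let-7i-5p stood above it. Neighbours that overlapped in percent of all counts were let-7c-5p and let-7d-5p, let-7d-5p and let-7g-5p, and let-7e-5p and let-7i-5p in WT. In san:san these were let-7b-5p and let-7g-5p, and let-7g-5p and let-7d-5p. Among all miRNAs let-7a-5p held rank 2 in each WT library and ranks 3, 2 and 6 in san:san, and let-7c-5p stood between ranks 13 and 18 in WT and between 34 and 36 in san:san.

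Each member was then tested on counts scaled by the trimmed mean of M values (TMM), which sets the libraries level on the bulk of the miRNAs, with levels given as scaled counts per library of a common size (CPM). With this scaling 3 of the 9 members (33.3%), let-7b-5p, let-7c-5p and let-7e-5p, passed edgeR's quasi-likelihood test as lower in san:san (Benjamini-Hochberg adjusted p below 0.05), 0 as higher, and 6 did not pass. Of all 254 miRNAs tested 64.2% were called, 29.5% lower and 34.6% higher, so the share of members called lower was near that of all miRNAs. At an unadjusted p under 0.05 there was 1 higher member, let-7g-5p. The median log2 fold change of the members was -0.19, against 0.30 for all tested miRNAs.

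let-7c-5p, 1 base from let-7a-5p, fell the most. It stood at 16746, 12833 and 14806 TMM-scaled CPM in WT and at 5430, 5938 and 5659 in san:san, with no overlap and with san:san libraries within a narrow range. The change was -1.38 ± 0.19 on the log2 scale (SE, edgeR adjusted p = 2.87e-05), a 2.60-fold lower level. let-7e-5p, made beside miR-125a, stood at 7810, 6346 and 5900 CPM in WT and at 3771, 3753 and 2902 in san:san. All of its san:san libraries were below all WT libraries, and its log2 change was -0.93 ± 0.20 (adjusted p = 0.00114 in edgeR). let-7b-5p, from the chromosome 15 pair, stood at 24064, 20077 and 21879 CPM in WT and at 14305, 14228 and 13121 in san:san, again without overlap. Its log2 change was -0.66 ± 0.19 (adjusted p = 0.00683 in edgeR), a call that was lost with no filter on low counts (adjusted p = 0.0852).

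The most abundant members gave no call with TMM scaling. let-7a-5p, the form conserved unchanged across animals, stood at 66985, 46838 and 52004 CPM in WT and at 64539, 69776 and 61325 in san:san. WT replicate 1 lay among the san:san libraries, and the other WT libraries lay below them (log2 0.24 ± 0.20, edgeR adjusted p = 0.294). let-7f-5p stood at 45102, 30945 and 31261 CPM in WT and at 30365, 33685 and 23206 in san:san, overlapping (log2 -0.29 ± 0.22, edgeR adjusted p = 0.254). It was called lower under 5 of 16 alternative settings, with a log2 change of -0.86 and an adjusted p of 0.00280 with total counts.

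The remaining members stayed between a small decrease and a small increase. let-7g-5p, made from an intron of Wdr82, stood at 8725, 7638 and 8429 CPM in WT and at 12117, 10817 and 10530 in san:san. Its genotypes did not overlap, but the log2 change of 0.44 ± 0.19 did not pass (edgeR adjusted p = 0.0538), and with total counts it was -0.14. It passed with no filter on low counts (adjusted p = 0.0378) and when the fit held the replicate number as a block (0.0331). let-7i-5p ranged from 4433 to 6890 CPM in WT and from 6502 to 7960 in san:san, overlapping (log2 0.32 ± 0.21, edgeR adjusted p = 0.192). let-7d-5p ranged from 9006 to 13890 in WT and from 9545 to 11307 in san:san, overlapping (log2 change -0.19 ± 0.21, adjusted p = 0.415 in edgeR). Its lowest WT value was replicate 1, and without that library it was called lower (log2 -0.44, adjusted p = 0.0338). miR-98-5p, the rarest member, counted 40, 52 and 40 times in WT libraries and 311, 263 and 168 times in san:san, ranged from 1460 to 2814 CPM and from 1741 to 2002 CPM. Its log2 change was 0.08 ± 0.25 (edgeR adjusted p = 0.783), and its highest WT value was again replicate 1.

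The scaling moved all members together. The median of all tested miRNAs was 0.30 with TMM, 0.04 with RLE factors (edgeR's version of size factors), 0.02 with DESeq2, -0.09 in libraries thinned to the smallest total and -0.29 with total counts. The members' median was below it by between 0.34 and 0.52 under all 17 settings run. With total counts 5 members were lower, let-7d-5p and let-7f-5p besides the 3 above, and 39.8% of all tested miRNAs were lower. let-7f-5p alone was added, giving 4 members, with RLE factors (33.9% of all tested miRNAs lower) and with DESeq2 (32.3%). The same 4 were lower in thinned libraries, where a median of 44.5 of 132 tested miRNAs was lower over the draws. They were also lower when the top 5 miRNAs were kept out of the library sizes (33.5%). Those top 5 include the member let-7a-5p, and also miR-486a-5p and miR-486b-5p, whose counts are identical. let-7c-5p and let-7e-5p were called lower under all 16 alternatives and let-7b-5p under 15. Among the 16 is the test on reads recovered from the per-sample columns, which repeated the TMM values and adds nothing separate. The gap between let-7g-5p and let-7c-5p, 1.81 on the log2 scale with TMM, lay between 1.72 and 1.87 under all 16 alternatives.

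**Figure D2:**
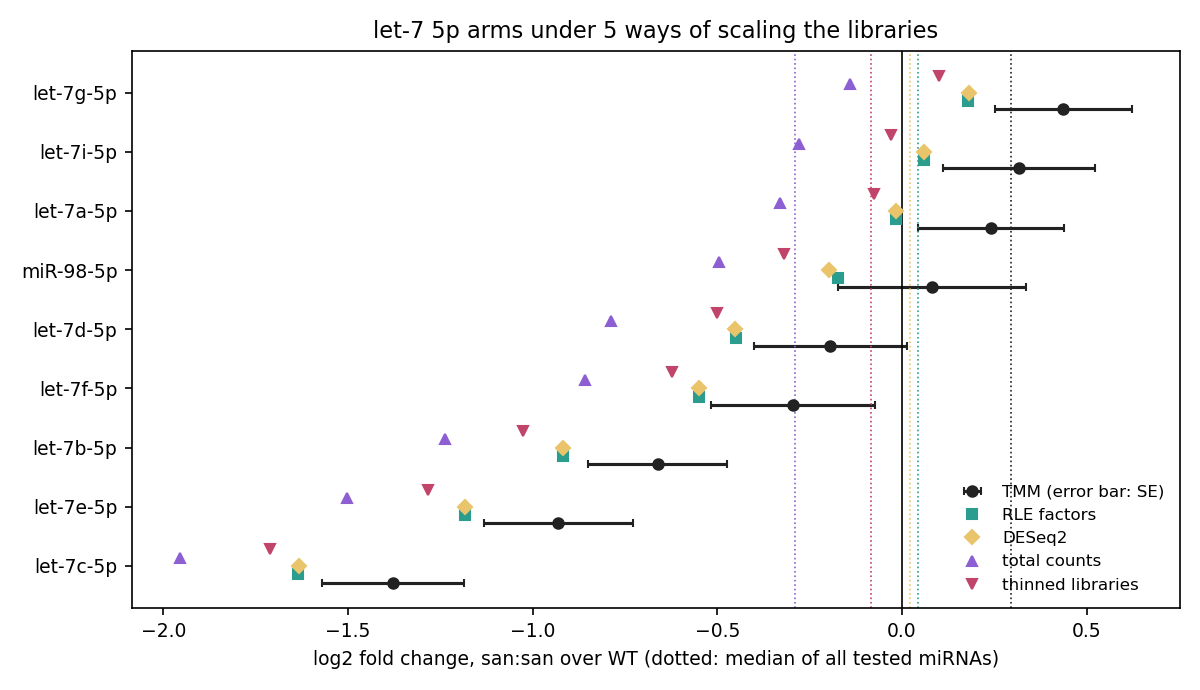
log2 fold change (san:san over WT) of each let-7 5p arm under 5 ways of scaling the libraries, with the SE as error bar for TMM and dotted lines at the median of all tested miRNAs under the same scaling. Thinned libraries were also scaled by TMM, at equal depth. let-7c-5p is lowest under each, between -1.96 and -1.38, while the sign of let-7a-5p, let-7g-5p, let-7i-5p and miR-98-5p depends on the scaling.

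Shares within the family do not depend on that scaling, and they showed a shift in composition from let-7b, let-7c and let-7e towards let-7a and let-7g. let-7a-5p made up 36.1%, 32.6% and 33.2% of the let-7 5p counts in the WT libraries and 43.4%, 44.5% and 44.5% in the san:san ones. let-7c-5p made up 9.02%, 8.94% and 9.46% in WT and 3.66%, 3.79% and 4.11% in san:san. let-7b-5p went from 13.6% ± 0.589 to 9.41% ± 0.293, let-7e-5p from 4.13% ± 0.331 to 2.35% ± 0.220 and let-7g-5p from 5.13% ± 0.379 to 7.57% ± 0.630. For these 5 members the genotypes did not overlap, with 3 lower and 2 higher in san:san, and each exact two-sided permutation test gave p = 0.1, the smallest that 3 against 3 allows. Ratios to the let-7 5p sum did not overlap for 70.9% of all 254 tested miRNAs, so 5 of 9 members (55.6%) is not more than among miRNAs in general. Exact 95% intervals for a member's share of the family were at most ±1.85 percentage points wide in WT and ±0.849 in san:san.

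The other 4 members overlapped in their share of the family. let-7f-5p stood at 21.9% ± 2.19 in WT and 19.6% ± 2.44 in san:san (exact permutation p = 0.4). let-7d-5p was at 7.34% ± 2.17 and 6.95% ± 1.09 (exact p = 0.8), let-7i-5p at 3.55% ± 1.04 and 4.82% ± 0.827 (exact p = 0.3), and miR-98-5p at 1.16% ± 0.314 and 1.29% ± 0.0381 (exact p = 0.4). WT replicate 1 was the lowest of all 6 libraries for let-7d-5p (4.85%) and let-7i-5p (2.39%) and the highest for miR-98-5p (1.52%). The 9 tests of shares were not adjusted, and none could have passed 0.05.

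**Figure D3:**
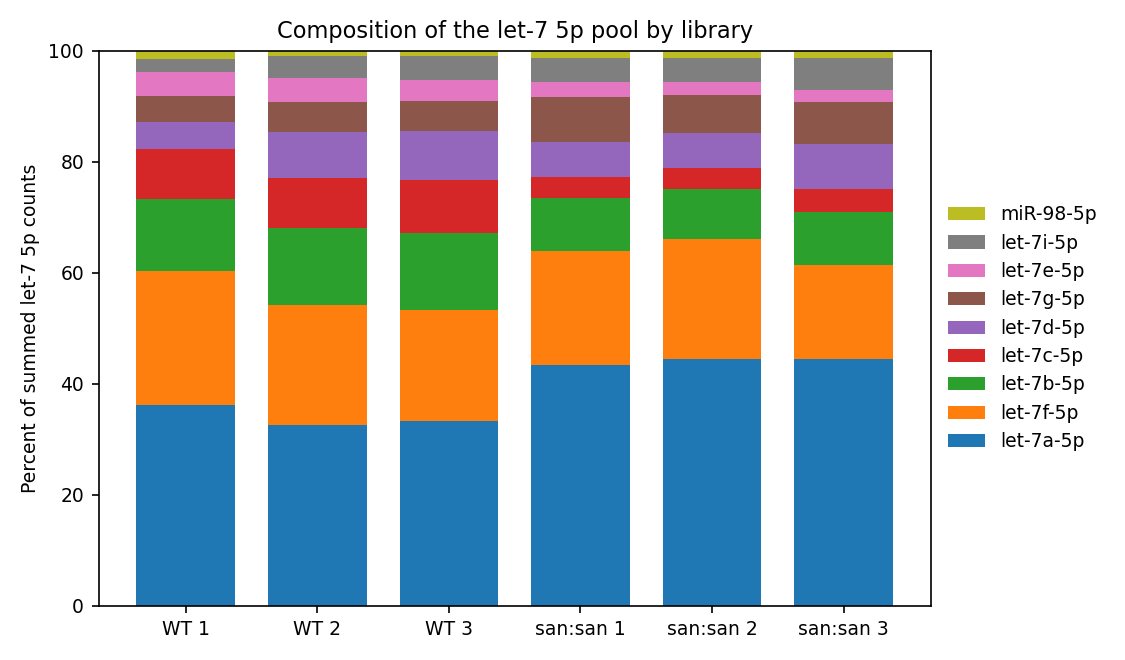
Composition of the let-7 5p counts in each library, in percent of the summed 9 members, stacked from the most to the least abundant in WT. let-7a-5p takes 32.6% to 36.1% in WT and 43.4% to 44.5% in san:san, and let-7b-5p, let-7c-5p and let-7e-5p together shrink from between 26.2% and 27.3% to between 15.3% and 15.8%.

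Taken as 1 group, let-7b-5p, let-7c-5p and let-7e-5p held 26.9% ± 0.631 of the family in WT and 15.6% ± 0.303 in san:san. They were grouped after their values were seen, so this is a description. let-7a-5p with let-7f-5p held 55.9% ± 3.89 and 63.8% ± 2.33. With both let-7a-5p and let-7f-5p left out of the total, let-7c-5p went from 20.8% ± 1.71 to 10.6% ± 0.515 of the rest. let-7g-5p went from 11.7% ± 0.180 to 20.9% ± 1.49, so both shifts kept their direction. On this total let-7i-5p was also higher without overlap, with means of 7.96% in WT and 13.3% in san:san. let-7b-5p and let-7e-5p were again lower without overlap, while let-7d-5p and miR-98-5p overlapped. These are still shares of a whole, in which a fall of some members raises the others, so they do not show which members changed.

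Ratios between single members gave the same picture one pair at a time. For each 100 counts of let-7a-5p there were 25.0, 27.4 and 28.5 of let-7c-5p in WT and 8.41, 8.51 and 9.23 in san:san. On the log2 scale this ratio was -1.89 ± 0.0964 in WT and -3.52 ± 0.0727 in san:san, a difference of -1.63. The difference was -1.20 for let-7e-5p, -0.91 for let-7b-5p and -0.55 for let-7f-5p, none of which overlapped between genotypes (each exact permutation p = 0.1). It was 0.18 for let-7g-5p, 0.10 for let-7i-5p, -0.19 for miR-98-5p and -0.42 for let-7d-5p, and these ratios overlapped. A ratio to let-7a-5p did not overlap for 4 of the 8 members (50%), and for 66% of the other tested miRNAs. Of all 36 pairs of members 23 (63.9%) did not overlap, against 66.3% of all pairs of tested miRNAs. let-7b-5p and let-7c-5p, though made from neighbouring hairpins on chromosome 15, also differed in their log2 ratio, 0.58 ± 0.0625 in WT and 1.29 ± 0.0957 in san:san. let-7d-5p and let-7i-5p, whose ratios to let-7a-5p varied most in WT, varied together: the log2 ratio of let-7d-5p to let-7i-5p was 1.04 ± 0.0474 in WT against 0.53 ± 0.0238 in san:san, with no overlap.

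**Figure D4:**
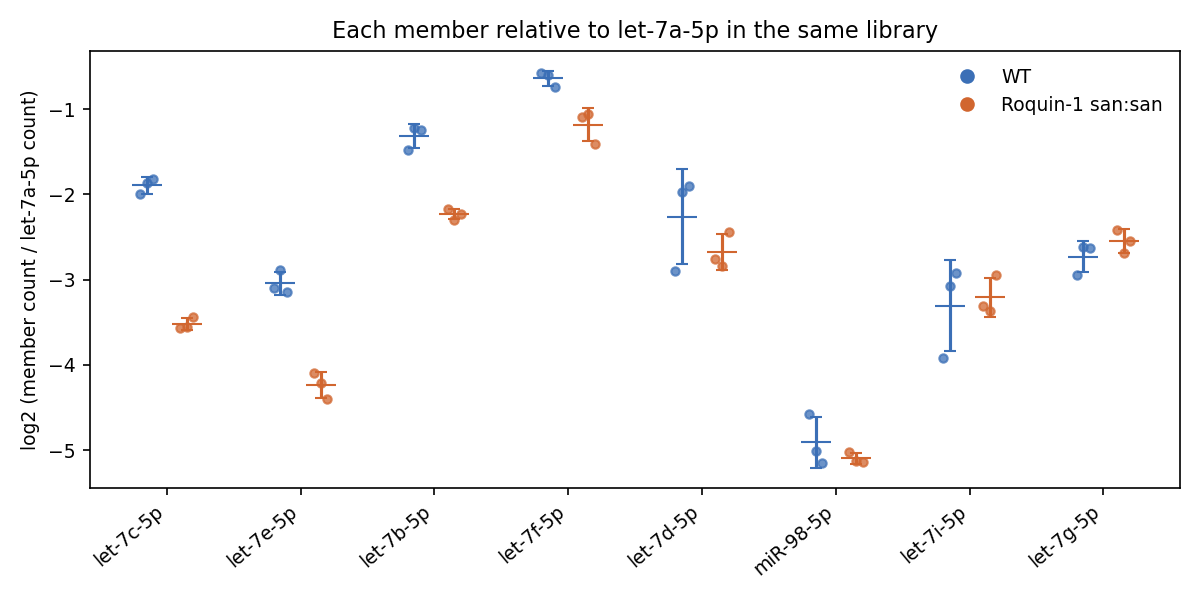
log2 of each member's count over the let-7a-5p count of the same library, WT in blue and san:san in orange, with mean and SD of 3 libraries, ordered by the difference between genotypes. let-7c-5p, let-7e-5p, let-7b-5p and let-7f-5p lie lower in san:san without overlap, and let-7d-5p, miR-98-5p, let-7i-5p and let-7g-5p overlap.

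Set beside the hairpins, the 3 members called lower come from chromosomes 15, 16 and 17, and no member outside these 3 is made at those loci. With TMM the members of the chromosome 13 and X clusters, let-7a-5p, let-7d-5p, let-7f-5p and miR-98-5p, had log2 changes between -0.29 and 0.24. With total counts these were between -0.86 and -0.33, and let-7d-5p and let-7f-5p were called lower too (edgeR adjusted p = 0.00578 and 0.00280). There let-7b-5p, let-7c-5p and let-7e-5p were between -1.96 and -1.24. A split of calls by locus thus depended on the scaling. Base composition did not separate the same members. let-7b-5p has the highest GC content of the family at 45.5%, but let-7c-5p and let-7e-5p (40.9%) share theirs with let-7d-5p and let-7i-5p, let-7a-5p and let-7g-5p have 36.4%, and let-7f-5p and miR-98-5p 31.8%. Across the 9 members the correlation of GC content with the log2 change was Pearson -0.45 (Spearman -0.40), and across the 208 tested miRNAs with a RefSeq sequence (81.9% of those tested) it was -0.29 (-0.23). These points share the same 6 libraries and 1 scaling, and miRNAs are not independent replicates, so both are descriptions. No base outside the seed was shared by let-7b-5p, let-7c-5p and let-7e-5p alone: A19G is found in let-7b-5p and let-7c-5p, and U9G in let-7e-5p.

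The miR-99, miR-100 and miR-125 hairpins accompany some let-7 hairpins in the genome, and their miRNAs are regulators of blood cell differentiation and growth. Of 11 arms listed, 7 were tested, and 4 were lower and 1 higher in san:san, where 29.5% and 34.6% of all 254 tested miRNAs were. The 4 lower arms were called under all 15 alternatives run for them. miR-125b-5p was counted 85, 284 and 160 times in the WT libraries and 289, 230 and 168 times in the deeper san:san ones, a log2 change of -1.90 ± 0.20 (adjusted p = 2.32e-06 in edgeR). miR-99a-5p, next to let-7c-1, was counted 0, 4 and 1 times in the WT libraries and 29, 25 and 25 times in san:san, which is opposite in direction to let-7c-5p (log2 1.68, edgeR adjusted p = 0.0374). That call was lost with RLE factors (0.0715), total counts (0.177), DESeq2 (0.107), with the top 5 miRNAs kept out of the library sizes (0.0746), TMM without let-7 rows (0.0609), and without WT replicates 1 (0.0919) or 3 (0.131). With a san:san library left out it was not tested. The change rests on 5 WT counts, and its log2 value ran from 1.09 with total counts to 2.94 without WT replicate 2 (adjusted p = 0.0326). miR-125a-5p (log2 0.21, edgeR adjusted p = 0.337) and miR-99b-5p (-0.12, 0.653), which lie with let-7e, did not pass, whereas their 3p arms were lower, with log2 changes of -3.78 (adjusted p = 1.94e-08) and -2.93 (1.67e-06). The remaining lowered name, miR-125b-1-3p, summed to 28 counts in WT and 3 in san:san.

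How many of the opposite arms were called depended on the scaling. Of 12 listed 3p arms, 7 were tested, let-7a-1-3p and let-7c-2-3p with identical counts among them. With TMM 1 was lower, let-7f-1-3p (log2 -0.66, edgeR adjusted p = 0.0434), and 1 higher, miR-98-3p (2.37, 6.63e-05), where 29.5% of all tested miRNAs were lower and 34.6% higher. miR-98-3p was called higher under all 15 alternatives run. With RLE factors, DESeq2, TMM without the let-7 rows and the top 5 miRNAs kept out of the library sizes, 2 arms were lower, let-7f-1-3p and let-7d-3p. Of all tested miRNAs, 33.9% were lower with RLE factors, 32.3% with DESeq2 and 33.5% with the top 5 kept out. With TMM without the let-7 rows 83 of 254 were lower. The adjusted p of let-7d-3p was 0.195 with TMM (log2 -0.34), 0.0316 with RLE factors, 0.0241 with DESeq2, 0.0391 with TMM without the let-7 rows and 0.0246 with the top 5 kept out. With total counts 5 arms were lower, all but miR-98-3p and 1 other, where 39.8% of all tested miRNAs were lower. The identical let-7a-1-3p and let-7c-2-3p are both among these 5, so they are not separate measurements. The let-7f-1-3p call was kept under 9 of 15 alternatives. It was lost when any 1 of WT replicates 1 and 2 and san:san replicates 1 and 2 was left out (adjusted p between 0.0676 and 0.152), with no filter (0.232) and in the fit with a replicate block (0.0760).

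Among the 245 tested miRNAs outside the family, the 5 whose TMM-scaled log2 CPM ran closest to that of the summed members were miR-29b-3p, miR-29a-3p, miR-24-3p, miR-92b-3p and miR-143-3p. Their root mean square difference from the centred let-7 sum over the 6 libraries was between 0.10 and 0.17 on the log2 scale, against a median of 0.88 for all 245. None of the 5 passed the edgeR test, with log2 changes between -0.34 and 0.03.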

How the data were processed

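Small RNA libraries of exosomes from macrophage supernatants were read from a table of counts that the authors deposited, with 1 row per miRNA name. Per the labels' protocols, RNA was extracted with Trizol and miRNA libraries followed standard Illumina procedures, although the labels also name a kit for messenger RNA. Reads were placed on mm9 as the submitters' processing notes name it. The aligner, the trimming, how multi-mapping reads were handled and the miRNA release were not given in the sources used here. Besides the table, the authors deposited a scaled signal per sample, named tpm in the file headers, whose columns summed to between 1056890 and 1082573. All of these values were whole multiples, within 0.1 reads, of the value of 1 read (100% of values above 0), and the recovered reads equalled the counts except for 1 miRNA in WT replicate 2. On the recovered reads edgeR made 163 calls, as on the counts. The implied read total assumes the per-read scaling that the header's name implies.

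Genotypes were tested by quasi-likelihood in edgeR 4.0.16 under R 4.3.3 over the 254 miRNAs kept by filterByExpr (minimum count 10), with TMM scaling, no term besides genotype, and p adjusted by Benjamini-Hochberg over all of them. The SE is the log2 change divided by the square root of its F statistic. Means and SDs are over 3 libraries per genotype, taken from the sample titles. For shares, exact permutation tests were two-sided (scipy 1.17.1), and intervals are Clopper-Pearson at 95%. Replicates of a genotype differed by more than counting noise (chi-square per degree of freedom of at least 3.78), so none was treated as 1 library deposited again. This does not show that they are separate biological samples. A total of 573 of 707 names matched a RefSeq mature sequence. Alternatives were total counts, RLE factors, library sizes that leave out the 5 top miRNAs, TMM without the let-7 rows, DESeq2 1.42.0, no filter, merged identical rows, a replicate block, 20 draws thinned to 12447 counts, and each library left out. The test on recovered reads was added after seeing the data. It repeated the main values, so it adds nothing separate. Yet it is included among the 16 alternatives counted for the members and the 15 counted for hairpin neighbours and 3p arms. The procedure was tested on simulated counts, in which changes went up or down at random with equal odds. That cannot show whether TMM sets these libraries level, where composition moved with genotype. The members, lists and tests were chosen with earlier results of these data known. The naming rule covered the 9 members, at most 3 of their opposite arms, hairpin neighbours from a list, and the 5 closest in profile. Marker miRNAs, names with identical counts (let-7a-1-3p and let-7c-2-3p among them), let-7k and let-7j are named outside it, chosen with their values known.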

Additional observations from a re-analysis of the deposited data

How the results depend on the processing

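The number of members called lower in san:san (3) was 5 with total counts, between 3 and 4 with a library left out, and between 2 and 4 under the other alternatives. The number called higher (0) was 1 with no filter and 1 in the fit with a replicate block, let-7g-5p both times. The block changed no other member's call. Of all miRNAs tested, 105 of 707 were lower and 102 higher with no filter, and 71 of 254 lower and 90 higher with the block. Without WT replicate 1, where 4 members were lower, 85 of 293 tested miRNAs were lower. The deviations of same-numbered libraries correlated at 0.103, -0.079 and 0.258, the last being the highest between any WT and san:san library. Not every library correlated best with its own number, so the numbers were not taken as pairs. The difference in let-7 share of all counts (-7.55 percentage points) was -4.69 without the 5 most abundant non-members and between -8.46 and -6.71 with a library left out. Of the 6 members without a call, let-7d-5p and let-7f-5p stayed below 0 under all 16 alternatives, and the other 4 changed sign under some. let-7a-5p was -0.016 with RLE factors, -0.016 with DESeq2, -0.33 with total counts and -0.076 in thinned libraries. let-7g-5p was -0.14 and let-7i-5p -0.28 with total counts, and let-7i-5p -0.030 in thinned libraries. miR-98-5p was -0.17 with RLE factors, -0.49 with total counts, -0.16 with library sizes without the 5 most abundant miRNAs, -0.094 with TMM without the let-7 rows, -0.20 with DESeq2, -0.32 in thinned libraries, and -0.18 and -0.052 without WT replicates 2 and 3, in a range of -0.18 to 0.30 with a library left out. The cause was not tested. The WT libraries limit precision, since 1 count was worth 34.6 to 80.3 CPM there and 5.38 to 7.93 CPM in san:san.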
